A study of Mus musculus with 26 samples.

Results

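Serine, glycine, proline and asparagine can each be made inside the cell, and 9 enzyme genes of these routes were followed here across mouse arteries. They were chosen by name: Phgdh, Psat1, Psph, Shmt1, Shmt2, Mthfd2, Aldh18a1, Pycr1 and Asns. All 9 were found by Ensembl identifier in every count table, among 55416 identifiers in the aortic tables and 55414 in the mesenteric ones, and all 9 passed the filter on low counts in each fit. The mice were male C57BL6J, and poly(A) RNA of their aorta and of their mesenteric arteries gave 13 libraries per tissue. The age recorded for the infused groups was 12 to 14 weeks, and the sample records used here hold no age for the sham groups. The wild type (WT) groups were Sphk1 flox/flox without Cre, either sham (n = 4) or infused with angiotensin II (AngII, a pressor peptide hormone) at 490 ng/kg/min for 14 days from a minipump under the skin (n = 4). The knockout (KO) group was Sphk1 flox/flox with a Tagln-cre transgene and received the same AngII infusion (n = 5), so every group carried the floxed allele and no sham KO group is among the samples. The Tagln (SM22α) promoter drives Cre in smooth muscle, so the deletion of Sphk1, a sphingosine kinase, was directed to that cell type. Bulk counts cannot show whether Sphk1 stayed intact in the other cells of the vessel. The study asks how loss of Sphk1 in smooth muscle changes the arterial transcriptome in hypertension.

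Serine is made from a glycolytic intermediate in a pathway of consecutive steps catalysed by Phgdh, Psat1 and Psph. The Shmt enzymes split serine into glycine and a one-carbon unit carried by folate, which mitochondrial Mthfd2 oxidises further, while Aldh18a1 and Pycr1 build proline from glutamate. Collagen chains repeat a triplet in which glycine comes first and proline is frequent in the other positions, so cells that secrete collagen use large amounts of both amino acids, and in stressed cells several of these genes are known targets of the transcription factor Atf4.

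Among the promoters of the 9 genes, 2 hold the letters TGATGNAA, a core of the element bound by Atf4 together with a C/EBP partner. The window ran from 250 bases before to 50 after the RefSeq start (build GRCm38.p6), read on both strands, and all 9 genes matched that promoter table. The stretches below are shown because the motif lies in them; its letters are in capitals, and both are read 5′ to 3′ on the minus strand of GRCm38.p6, Asns at chr6:7693210-7693282 and Pycr1 at chr11:120643794-120643901.
Asns: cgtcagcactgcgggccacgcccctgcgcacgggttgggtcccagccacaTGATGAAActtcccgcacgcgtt
Pycr1: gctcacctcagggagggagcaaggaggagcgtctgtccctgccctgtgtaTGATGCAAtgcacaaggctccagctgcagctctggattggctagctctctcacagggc
Its first base lay 23 bases before the start in Asns and 103 before in Pycr1. The motif occurred in the same window of 4.51% of 27025 genes. A second motif, CACGTG, the E-box read by Myc and its relatives, which does not overlap TGATGNAA, occurred in 8.09% of genes and in 1 of the 9, Aldh18a1, with its first base 59 before the start. A match describes letters only, and binding was not measured.

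Assigned counts ran from 23487946 to 32251097 per aortic library and from 17540532 to 30050073 per mesenteric one. Sphk1 itself matched the labels: in the aorta the 5 KO libraries lay at 1.715 to 3.292 CPM (counts scaled to library size after TMM normalisation), against 11.55 to 24.22 in infused WT and 3.038 to 6.028 in sham. In the mesenteric arteries the KO libraries lay at 2.894 to 4.938 CPM, the infused WT libraries at 9.841 to 17.81 and the sham libraries at 7.427 to 9.422. Summed CPM of 10 smooth muscle markers was 18680 to 39540 over all aortic libraries and 24900 to 55390 over all mesenteric ones, so contractile vessel transcripts were abundant in every library. Mesenteric libraries stood apart from one another in another respect. Summed CPM of 10 pancreatic acinar markers, genes of digestive enzymes that arteries do not make, ran from 23.6 to 99430 there and from 3.968 to 10.81 in the aorta. The acinar values per library are given with the mesenteric results. Summed lymphocyte markers were 10.25 to 17.67 CPM in mesenteric sham, 8.413 to 179.3 in infused WT and 12.76 to 702.3 in KO. Macrophage markers were 228.4 to 441, 316.6 to 809.6 and 335.1 to 2308 there. Gut epithelial markers were 28.49 to 54.97, 22.76 to 577.5 and 53.47 to 367.9. Over 10% of records were not aligned in mesenteric infused WT replicate 1 and KO replicates 2, 3 and 4. The part of lymphocytes and macrophages was not tested. In bulk tissue a change in the number of cells of a type and a change in RNA per cell cannot be told apart.

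In the aorta, AngII infusion raised 6 of the 9 enzyme genes and lowered none. The genes that rose were Phgdh and Psat1 for serine, Mthfd2 for one-carbon units, Aldh18a1 and Pycr1 for proline, and Asns for asparagine. Neither gene of the step that forms glycine, Shmt1 and Shmt2, passed the test, nor did Psph. A gene is called here when its Benjamini-Hochberg adjusted p over all genes, from the quasi-likelihood test of edgeR, is below 0.05, and 14.7% of the 16863 genes tested were called higher by this rule. The median log2 fold change of the 9 was 0.68, against -0.00 for all genes tested. In 5 of the 9 (Phgdh, Psat1, Aldh18a1, Pycr1, Asns) every infused WT library lay above every sham library, which was so for 12.2% of all genes. Summed CPM of the 9 was 127.3 to 135.2 in sham, 178.7 to 248.1 in infused WT and 178.2 to 219.8 in infused KO aortas.

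**Figure D1:**
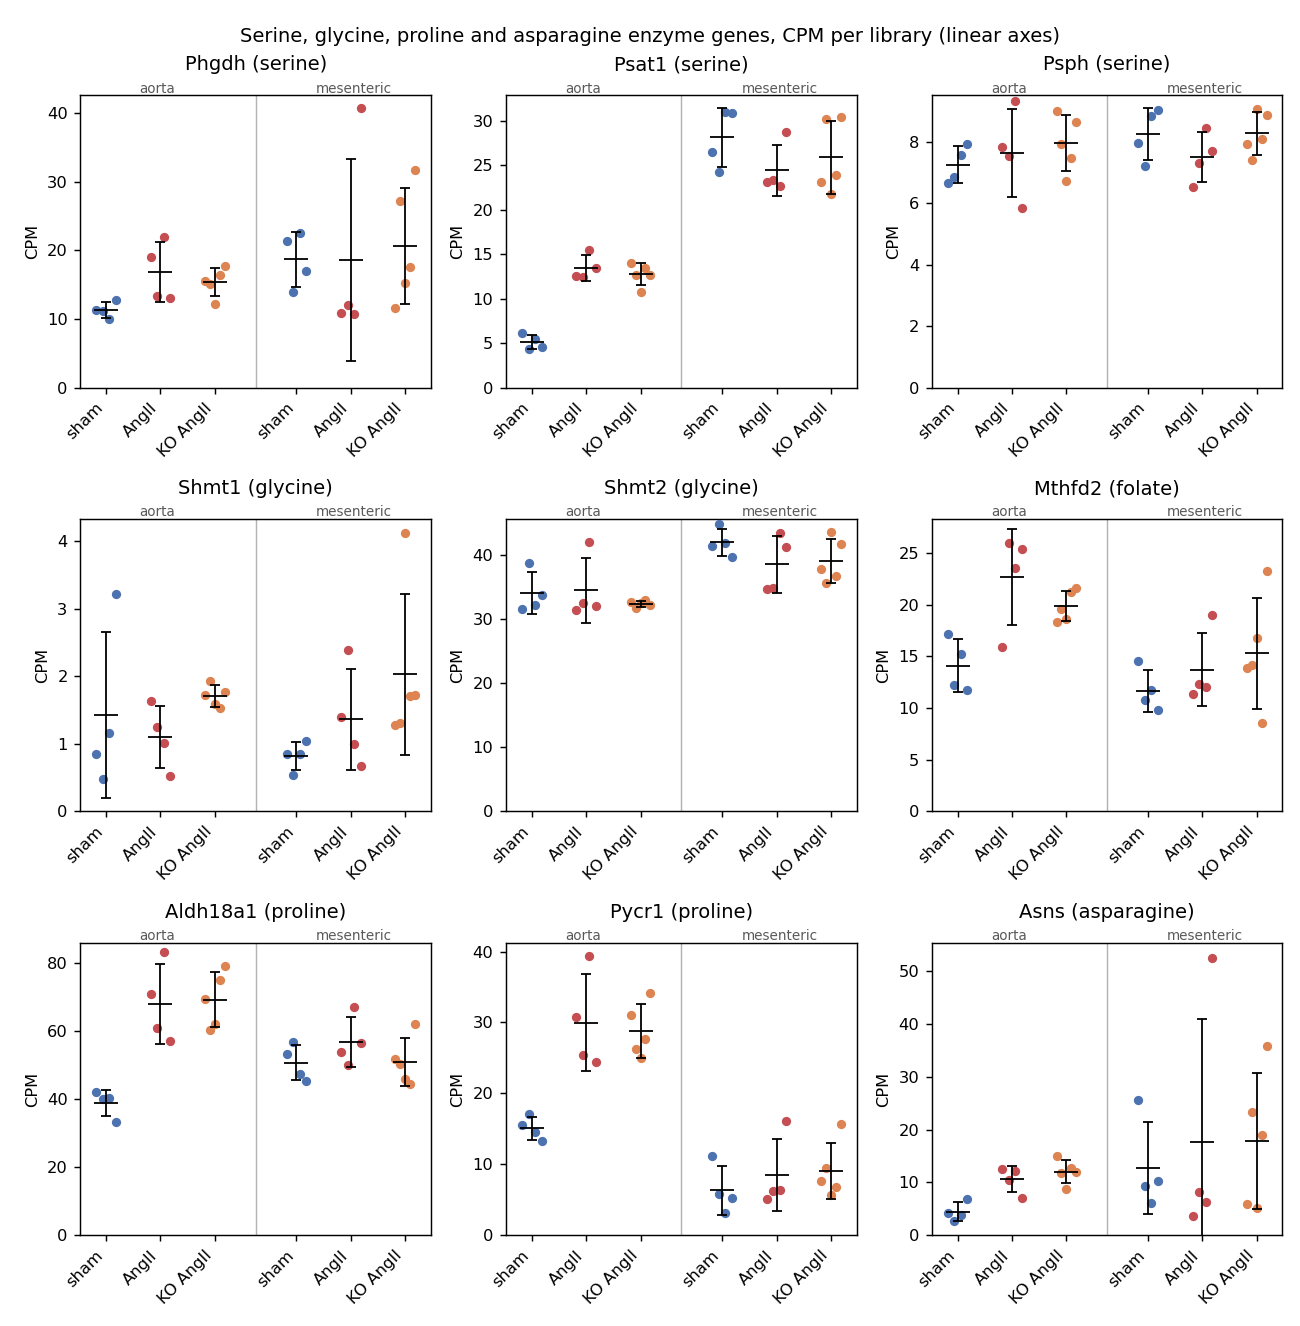
CPM (TMM-scaled, linear axis from 0) of each enzyme gene in every library, by group, aorta left of the grey line and mesenteric arteries right of it; points are libraries, long ticks group means and bars 1 SD (cut off at 0 where they reach below it). Aortic Psat1 lies at 4.347 to 6.088 in sham and at 12.39 to 15.51 in infused WT, while the mesenteric groups overlap in all panels except that all KO values of Shmt1 lie above the sham values.

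Phgdh opens the serine route by oxidising 3-phosphoglycerate. Its aortic levels were 11.3, 11.12, 10.03 and 12.76 CPM in sham, 19.06, 13.35, 21.91 and 13.09 in infused WT and 15.48, 15.14, 12.13, 16.46 and 17.65 in infused KO libraries. Infused WT libraries were all above sham, though 2 of them by little, and KO replicate 3 lay within the sham range. The log2 fold change for AngII in WT was 0.58 ± 0.16 (SE, adjusted p = 0.0165, edgeR). This call was lost without infused WT replicate 3 (0.42, adjusted p = 0.0518) or sham replicate 3 (0.52, adjusted p = 0.0511).

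Psat1, the aminotransferase of the next step, had the largest AngII estimate among the 9 in WT, though that of Asns lay within its own SE of it. Psat1 stood at 6.088, 4.347, 5.415 and 4.539 CPM in sham, at 12.52, 12.39, 15.51 and 13.38 in infused WT and at 14.01, 12.68, 10.74, 13.46 and 12.7 in infused KO aortas. No infused library, WT or KO, came near the sham range. AngII raised Psat1 2.63-fold (log2 1.40 ± 0.13, adjusted p = 6.39e-06, edgeR), which ranked it 41st of 16863 genes by p. Psph, the phosphatase that releases serine, stayed at 6.641 to 7.935 CPM in sham, 5.843 to 9.328 in infused WT and 6.729 to 8.992 in KO, groups that overlap (log2 0.07, 95% interval -0.23 to 0.38). Within the serine route the first steps therefore rose and no change of the last was detected, the interval allowing at most about 0.38 on the log2 scale.

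Shmt2, the mitochondrial enzyme that makes glycine from serine, was the most abundant of the 9 in the sham aorta per kilobase of transcript. Its CPM was 31.52, 38.72, 32.13 and 33.71 in sham, 31.41, 32.39, 41.98 and 31.93 in infused WT and 31.6 to 32.86 in KO. The groups overlap, and the log2 fold change of 0.02 had a 95% interval of -0.18 to 0.21. Shmt1, its cytosolic counterpart, was scarce, at 0.8447, 0.4789, 1.155 and 3.217 CPM in sham, 1.628, 1.25, 1.012 and 0.528 in infused WT and 1.532 to 1.93 in KO. The sham value of 3.217 stands far above the other 3, and the interval of the fold change is wide (log2 -0.36, 95% interval -1.35 to 0.63). Without that library the KO against sham difference of Shmt1 was called (log2 1.04, adjusted p = 0.0382, edgeR), and with it the value was 0.26 (adjusted p = 0.678).

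Mthfd2, the mitochondrial methylenetetrahydrofolate dehydrogenase, rose in the aorta without full separation of the groups. It was 17.16, 12.27, 15.23 and 11.72 CPM in sham, 15.87, 25.96, 23.54 and 25.38 in infused WT and 18.37, 19.64, 18.67, 21.22 and 21.64 in KO. Infused WT replicate 1 lay inside the sham range, and the other 3 lay well above it. The log2 fold change was 0.68 ± 0.15 (adjusted p = 0.00393, edgeR).

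The proline pair rose together. Aldh18a1, which makes the glutamate semialdehyde that cyclises on the way to proline, was 41.97, 40.0, 40.36 and 33.21 CPM in sham and 70.79, 60.74, 83.34 and 57.06 in infused WT, with 69.34, 60.21, 62.14, 75.01 and 79.25 in KO. The gap between the highest sham and the lowest infused library was 41.97 to 57.06, and the fold was 1.75 (log2 0.81 ± 0.12, adjusted p = 0.000264, edgeR). Pycr1, the mitochondrial reductase that closes the route, was 15.47, 17.06, 14.51 and 13.26 CPM in sham, 30.8, 25.44, 39.37 and 24.36 in infused WT and 31.04, 26.19, 25.01, 27.61 and 34.12 in KO. All 9 infused libraries lay above all 4 sham libraries, and the fold in WT was 1.99 (log2 0.99 ± 0.14, adjusted p = 0.000212, edgeR). Among the infused WT aortas, replicate 3 was highest and replicate 4 lowest for both genes.

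Asns, which makes asparagine from aspartate with glutamine as nitrogen donor, was 4.224, 2.726, 3.862 and 6.934 CPM in sham, 12.55, 10.44, 12.15 and 7.11 in infused WT and 15.04, 11.77, 8.734, 12.75 and 11.94 in KO. Sham replicate 4 and infused WT replicate 4 nearly touched, and the remaining libraries were far apart. The fold was 2.38 (log2 1.25 ± 0.25, adjusted p = 0.00281, edgeR).

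Per kilobase of transcript, the levels in the sham aorta ran in the order Shmt2 (14.9 ± 1.43 CPM per kb, SD, n = 4), Aldh18a1 (11.03 ± 1.10), Mthfd2 (6.76 ± 1.23), Phgdh (5.97 ± 0.592), Pycr1 (5.17 ± 0.549), Psph (4.19 ± 0.351), Asns (2.20 ± 0.885), Psat1 (1.95 ± 0.309) and Shmt1 (0.498 ± 0.429). In that order, Mthfd2 and Phgdh, and Asns and Psat1, lay less than the larger SD of the pair apart. In infused WT aortas Aldh18a1 stood first (19.3 ± 3.34 CPM per kb), followed by Shmt2 (15.0 ± 2.21), Mthfd2 (10.9 ± 2.23) and Pycr1 (10.3 ± 2.35). Mthfd2 and Pycr1 lay less than the larger SD of the pair apart. Psat1 (5.14 ± 0.552) then stood at the level of Asns (5.24 ± 1.23), both above Psph (4.41 ± 0.825) by less than the larger SD of the pair.

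Between infused KO and infused WT aortas no difference in these genes was detected, and for Psat1, Aldh18a1, Pycr1, Psph and Shmt2 the data leave room for at most 0.35 on the log2 scale in either direction. In this comparison 0 of the 9 genes were called between infused KO and infused WT by edgeR (smallest adjusted p 0.981), 0 had an unadjusted p below 0.05, and DESeq2 and limma voom also called 0. Of all genes, 0.00593% were called. The groups overlapped in all 9, whereas they separated in 0.48% of all genes with KO higher and in 0.486% with KO lower. The 95% intervals of the log2 difference were -0.33 to 0.17 for Psat1, -0.22 to 0.27 for Aldh18a1, -0.35 to 0.23 for Pycr1, -0.49 to 0.11 for Mthfd2, -0.46 to 0.19 for Phgdh and -0.31 to 0.69 for Asns. Psph and Shmt2 had intervals of -0.23 to 0.34 and -0.28 to 0.10, and Shmt1 -0.32 to 1.56.

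Infused KO aortas were also compared with the sham WT aortas, a comparison that shares its libraries with the 2 above and is not independent of them. Phgdh, Psat1, Mthfd2, Aldh18a1, Pycr1 and Asns were higher, 6 of 9, where 16.6% of all genes were called higher. The log2 differences were 0.44 ± 0.15 for Phgdh (adjusted p = 0.0399), 1.32 ± 0.12 for Psat1 (5.12e-06), 0.50 ± 0.14 for Mthfd2 (0.0159), 0.83 ± 0.12 for Aldh18a1 (0.000113), 0.93 ± 0.14 for Pycr1 (0.00019) and 1.44 ± 0.25 for Asns (0.000633), all adjusted p from edgeR. The Phgdh call was lost without any 1 of 7 libraries (KO replicates 1, 2, 4 and 5, sham replicates 1, 2 and 3), with adipocyte markers as a covariate (log2 0.21, adjusted p = 0.348), with library size alone as the scale and with the replicate block. The Mthfd2 call was lost without sham replicate 2 (log2 0.43) or 4 (0.41) and with the block. In 5 genes (Psat1, Mthfd2, Aldh18a1, Pycr1, Asns) all KO libraries lay above all sham libraries, which was so for 16.8% of all genes.

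**Figure D2:**
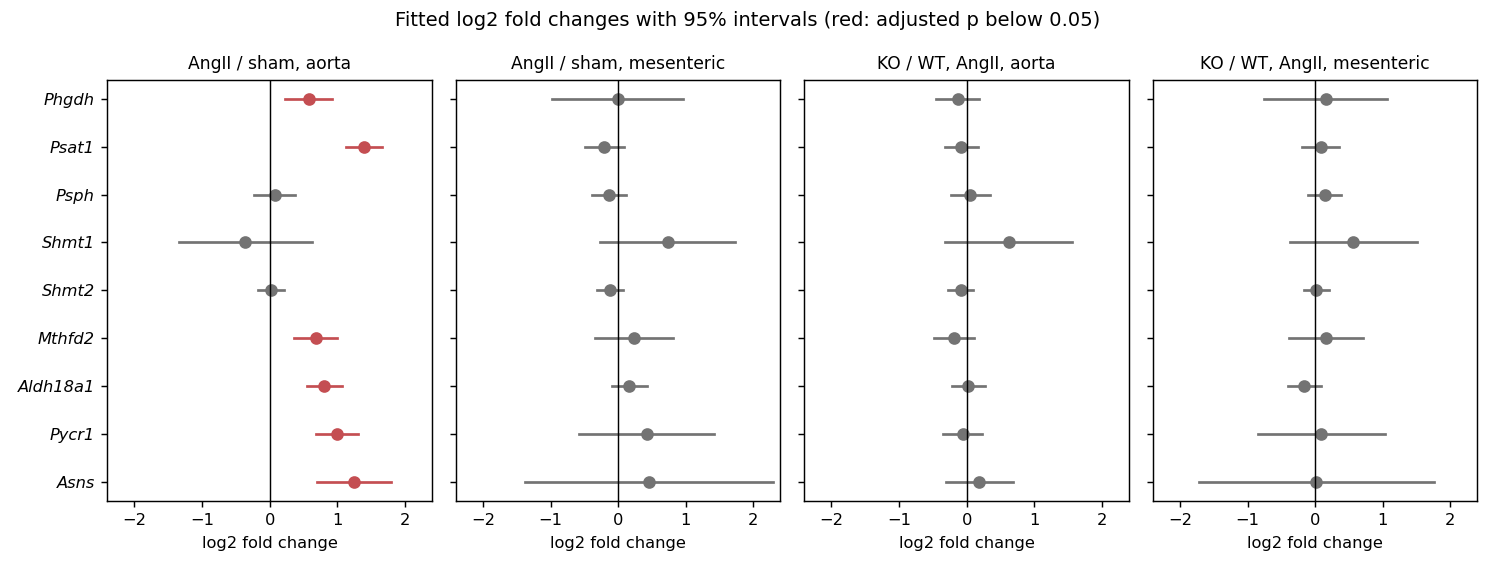
Fitted log2 fold changes (points) with 95% intervals (lines) of the 9 genes for AngII against sham in WT mice and for KO against WT under AngII, in each vessel; red marks an adjusted p below 0.05. The 6 red genes appear in the aortic AngII panel alone, from 0.58 for Phgdh to 1.40 for Psat1, and the mesenteric intervals of Asns are the widest.

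The AngII effect on these genes was next examined against the collagen transcripts of the same aortas. Col1a1, Col1a2 and Col3a1 encode the chains of collagens I and III, the main fibrillar collagens of arteries. They rose 5.37-fold, 3.72-fold and 5.21-fold with AngII in WT (log2 2.42 ± 0.23, 1.89 ± 0.20 and 2.38 ± 0.25, adjusted p = 7.99e-06, 2e-05 and 2e-05, edgeR). Glycine and proline make up 26.8% and 19% of the codons of Col1a1, 27.8% and 16.3% of Col1a2 and 28.3% and 19.5% of Col3a1, against medians of 6.01% and 5.24% over all coding genes. Of fibrillar collagen genes 8 of 10 tested rose, and of 15 genes for collagen hydroxylation and folding 14 rose, among them P4ha1, a prolyl hydroxylase catalytic subunit (log2 0.96 ± 0.09), and Plod2, a lysyl hydroxylase (1.19 ± 0.13).

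All collagen genes together took 2.245, 2.052, 2.287 and 1.788% of counts in the sham aortas, 7.747, 5.238, 5.944 and 5.061% in infused WT and 6.106, 5.986, 4.783, 6.264 and 7.408% in infused KO. The lowest infused library held more than 4.7% and the highest sham library less than 2.3%. The difference between the WT means was 3.904 percentage points (exact two-sided permutation p = 0.0286, the smallest that 4 against 4 libraries can give; 0.143 after Benjamini-Hochberg adjustment over 20 such tests). KO and WT under AngII differed by 0.11 points (exact permutation p = 0.905, adjusted 0.969).

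To express this as amino acid use, the counts of each gene were divided by transcript length and multiplied by its codons, which gives the composition of the protein that the transcripts encode and not of the protein made. Glycine codons were 7.498, 7.514, 7.555 and 7.327% of all codons in sham and 9.111, 8.509, 8.744 and 8.659% in infused WT aortas, a difference of 1.28 points. Proline codons were 6.267, 6.214, 6.284 and 6.152% in sham and 7.178, 6.788, 6.862 and 6.824% in infused WT, a difference of 0.68 points. Neither pair of groups overlaps. Serine codons went the other way, from 7.364 to 7.456% in sham to 7.119 to 7.257% in infused WT (difference -0.22 points), again without overlap. Each of these 3 differences had an exact permutation p of 0.0286, the smallest possible, and an adjusted p of 0.143. Asparagine codons were 3.69% in sham and 3.67% in infused WT on average (exact permutation p = 0.371, adjusted 0.929).

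Collagen genes carried most of the rise in glycine and proline codons. Of all glycine codons, 8.254 to 10.35% lay in collagen transcripts in sham and 20.24 to 30.14% in infused WT, and of all proline codons 6.811 to 8.623% and 17.8 to 25.8%. With the collagen genes left out, the glycine difference was 0.29 points and the proline difference 0.07 points, and the latter no longer reached the smallest permutation p. Set side by side, the encoded proline share was higher and the proline genes Aldh18a1 and Pycr1 rose. The encoded glycine share differed most, and no rise was detected in Shmt1 or Shmt2. The encoded serine share was lower, and the serine genes Phgdh and Psat1 rose. Mean shares of leucine (9.56% in sham, 9.21% in infused WT) and lysine (5.87% and 5.71%) were lower too. Serine makes up 4.61% of the codons of Col1a1, 5.61% of Col1a2 and 5.67% of Col3a1, against a median of 7.87%. These are shares of a whole, so a lower share does not mean that less serine was needed.

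**Figure D3:**
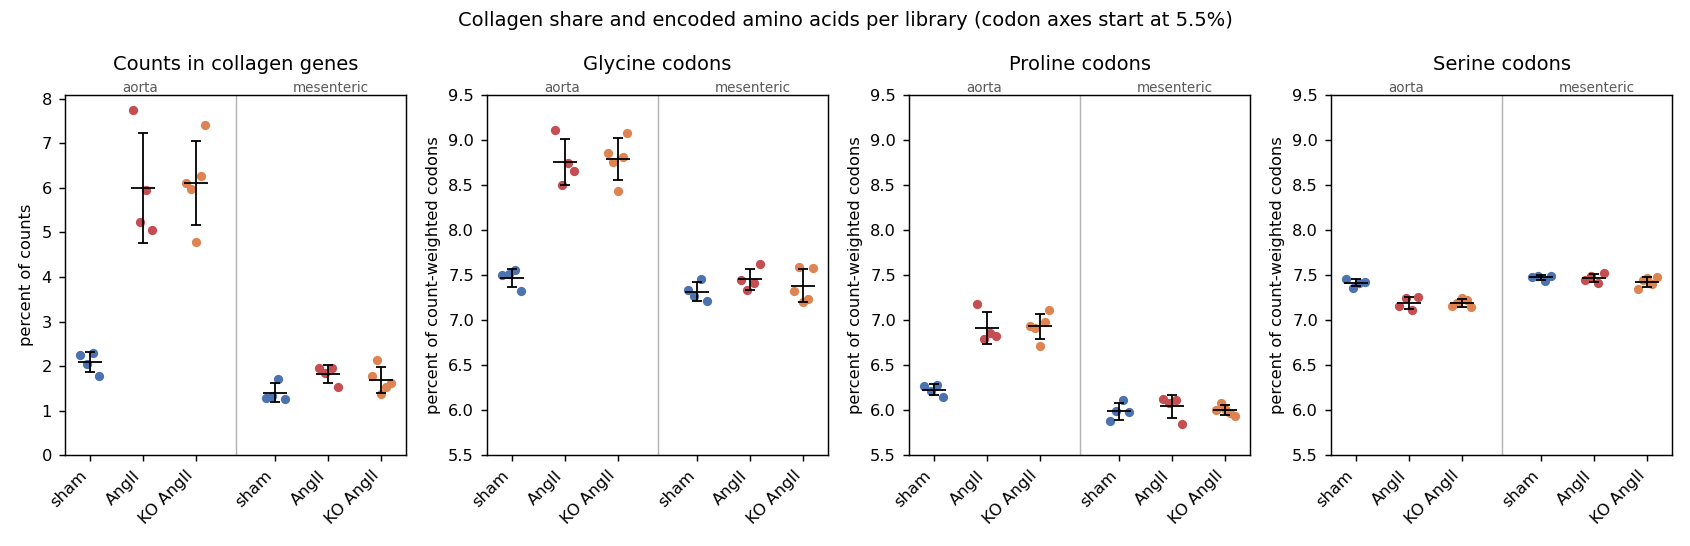
Percent of counts in collagen genes (axis from 0) and percent of glycine, proline and serine among count-weighted codons (axes from 5.5 to 9.5%) in every library, by group and vessel, with group mean and 1 SD. In the aorta the collagen share lies at 1.788 to 2.287% in sham and at 4.783 to 7.747% in all infused libraries, glycine and proline move up with it and serine moves down, and the mesenteric groups overlap in each panel.

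Whether infused aortas with more collagen transcript also had more of the enzyme transcripts was examined over the 9 infused libraries, WT and KO together, with the log2 collagen share on the x axis. Phgdh gave Pearson r = 0.744 (exact permutation p = 0.0223) and Spearman rho = 0.75 (p = 0.0255), with r = 0.583 without the 2 libraries farthest from the median collagen share. Asns gave r = 0.671 (exact permutation p = 0.0452) and rho = 0.75 (p = 0.0255), Aldh18a1 r = 0.640 (p = 0.0677) and rho = 0.55 (p = 0.133), and Pycr1 r = 0.604 (p = 0.0861) and rho = 0.65 (p = 0.0666), all exact permutation values. Without the 2 farthest libraries r was 0.633, 0.725 and 0.599. Psat1 gave r = 0.243 (exact permutation p = 0.541) and rho = 0.233 (p = 0.552). Mthfd2, which also rose with AngII, ran the other way (r = -0.488, exact permutation p = 0.184; rho = -0.45, p = 0.23; r = -0.572 without the 2 farthest libraries). Of the genes not called for AngII, Psph gave r = 0.573, Shmt1 0.476 and Shmt2 -0.076 (exact permutation p = 0.106, 0.201 and 0.723). Without the 2 farthest libraries these were 0.632, 0.695 and 0.008. None held after adjustment over the 45 relations computed (smallest adjusted p of r among these 0.201, of rho 0.229, exact permutation), so a graded relation within infused aortas was not shown.

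The counts for neighbouring genes that follow are to be read against all genes tested for AngII in the aorta, of which 25.5% were called, 14.7% higher and 10.8% lower. Of 27 one-carbon and glycine genes tested 3 rose and 4 fell: Mthfd1l, the mitochondrial formate-producing enzyme downstream of Mthfd2, rose (log2 0.64 ± 0.13, adjusted p = 0.00285), and Cbs, which draws serine into cystathionine, fell from 5.07 to 6.97 CPM in sham to 1.37 to 2.51 in infused WT (log2 -1.59 ± 0.21, adjusted p = 0.000101), both by edgeR. Amt, a subunit of the glycine cleavage system, fell as well (log2 -0.56 ± 0.13, adjusted p = 0.00526, edgeR). Of 19 genes of proline, glutamate, aspartate and arginine metabolism 4 rose and 0 fell, among them the transaminases Got1 (log2 0.57) and Gpt2 (0.80), and L3hypdh (0.47), which acts on trans-3-hydroxyproline. Pycr3, a cytosolic pyrroline-5-carboxylate reductase, was not called (log2 -0.23, 95% interval -0.51 to 0.05). Nor were the proline breakdown genes Prodh (-0.22, -0.63 to 0.19) and Aldh4a1 (-0.18, -0.48 to 0.13). Of 22 glycolysis genes 0 rose and 3 fell, including Ldhb (log2 -0.75 ± 0.10).

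Of 31 amino acid transporter genes 8 were called higher and 4 lower, the latter close to the share of all genes called lower. Slc36a1, a proton-coupled carrier of small neutral amino acids including proline and glycine, rose (log2 0.70 ± 0.11), as did Slc7a6, a cationic and neutral amino acid exchanger (0.51 ± 0.09). Slc38a3, a glutamine carrier, fell from 2.33 to 3.10 CPM to 0.352 to 0.956 CPM (log2 -1.80 ± 0.32), and Slc6a9, the glycine transporter GlyT1, fell (-0.67 ± 0.14). Adjusted p by edgeR was 0.000354, 0.000796, 0.000929 and 0.0033 in that order.

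Of 25 genes of the Atf4 and integrated stress response 9 rose and 2 fell with AngII in the aorta. Atf4 mRNA rose little (log2 0.28 ± 0.09, adjusted p = 0.0358), and its protein, whose translation is the main point of control, was not measured. Nupr1, a stress-induced nuclear protein (1.18 ± 0.14, adjusted p = 5.15e-05), and Sesn2, a leucine sensor that restrains mTORC1 (0.62 ± 0.13, 0.00276), rose, while Vldlr, a lipoprotein receptor, fell (-0.62 ± 0.07, 3.54e-05), as did Trib3 (-0.59 ± 0.20, 0.0436), all by edgeR. Ddit3, which encodes CHOP, was not called (log2 0.11, 95% interval -0.23 to 0.45). Of 20 cytosolic aminoacyl-tRNA synthetase genes 5 rose and 1 fell, a total near the share of all genes called; those that charge glycine and proline, Gars1 (0.34 ± 0.08, adjusted p = 0.00627) and Eprs1 (0.25 ± 0.07, 0.0183), were among the 5. Of 8 regulators 4 rose, Myc by 1.46 ± 0.20, Tgfb1 by 0.51 ± 0.09, Tgfb2 by 0.88 ± 0.25 and Tgfb3 by 0.82 ± 0.10 on the log2 scale (adjusted p = 0.000118, 0.00119, 0.0231 and 5.21e-05, edgeR). Cell cycle genes rose in 24 of 28 cases (median log2 1.89 over the list); the smallest adjusted p-values were those of Cdk1 (log2 2.32 ± 0.22), Top2a (2.70 ± 0.25) and Rrm2 (1.47 ± 0.15). These lists were chosen with earlier results in view, so their counts are a description.

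Markers of other cells moved with the same contrast in the aorta. All 10 macrophage markers rose (summed CPM 570.9 to 699.3 in sham, 769.2 to 1042 in infused WT), 6 of 10 fibroblast markers rose (10040 to 11470 against 23110 to 52240; the list holds Col1a1 and Col3a1), and 3 of 10 smooth muscle markers fell (31640 to 39540 against 18680 to 35650). Summed markers stayed low throughout the aorta for the acinar cell (at most 10.81 CPM), the gut epithelium (at most 19) and the lymphocyte (at most 10.14). The part of these cells in the rise of the enzyme genes was not tested. With adipocyte markers, which varied from 485.7 to 2335 summed CPM over the aortic libraries, as a covariate, 6 of the 9 genes remained called for AngII, at log2 0.47 for Phgdh, 1.38 for Psat1, 0.72 for Mthfd2, 0.78 for Aldh18a1, 0.95 for Pycr1 and 1.08 for Asns.

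Expression most like that of the 9 was found by correlating every gene of mean log2 CPM of at least 1 with the mean of their standardised log2 CPM over the 13 libraries of a tissue. In the aorta Plscr1 (r = 0.970), Spi1 (0.962), Tmem173 (0.951) and Isg20 (0.949) were among the leading genes of 12008. In the mesenteric arteries Fkbp11 (0.871), Naxd (0.863), Edem2 (0.858), Cope (0.843) and Ero1lb (0.840) led among 12528. The libraries span the groups, so these values describe shared differences between groups as well as between animals. The 13 mesenteric libraries also span summed acinar markers of 23.6 to 99430 CPM, whose part in these values was not tested.

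In the mesenteric arteries none of the enzyme genes was called for AngII (0 of 9 by edgeR, DESeq2 and limma voom; 0 with an unadjusted p below 0.05), and 0.183% of all 17513 genes were. The median log2 fold change of the 9 was 0.16. No gene of the 9 separated infused WT from sham, which 4.53% of all genes did with AngII higher and 4.23% with AngII lower. Aldh18a1 was at 53.2, 56.79, 47.49 and 45.35 CPM in sham, 53.82, 50.09, 66.98 and 56.33 in infused WT and 44.49 to 62.19 in KO, so the groups overlap (log2 0.16, 95% interval -0.09 to 0.42). Psat1 was at 26.49, 24.22, 30.92 and 30.88 CPM in sham, 23.1, 23.32, 22.61 and 28.72 in infused WT and 21.71 to 30.38 in KO (log2 -0.20, 95% interval -0.49 to 0.08). For both genes the upper bound lay below the log2 fold change found in the aorta (0.81 and 1.40). Intervals were wider for Asns (-1.38 to 2.29), Pycr1 (-0.57 to 1.42), Phgdh (-0.97 to 0.96), Shmt1 (-0.26 to 1.73) and Mthfd2 (-0.34 to 0.80). For Asns, Pycr1, Phgdh and Mthfd2 an AngII effect as large as that in the aorta remains possible. The aortic estimate of Shmt1 (log2 -0.36), itself not called, lay below its mesenteric interval. Psph (6.512 to 9.067 CPM), Shmt2 (34.62 to 44.72) and Mthfd2 (8.529 to 23.29) are given by their range over the 13 mesenteric libraries, in which the 3 groups overlap.

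Between KO and WT under AngII the mesenteric arteries also gave 0 of 9 calls by edgeR, DESeq2 and limma voom, with 0 at an unadjusted p below 0.05 and 0.00571% of all genes called. None of the 9 separated these groups, against 0.611% of all genes with KO higher and 1.04% with KO lower. Shmt1 in infused KO libraries, at 1.277, 1.302, 4.129, 1.713 and 1.719 CPM, lay wholly above sham, at 0.8501, 0.5332, 0.8498 and 1.047, which was so for 3.22% of all genes (3.68% lay wholly below). That difference did not pass adjustment (log2 1.30 ± 0.44, adjusted p = 0.162, edgeR), and it was the only 1 of the 9 with an unadjusted p below 0.05 between infused KO and sham, where 0 of 9 were called by edgeR, DESeq2 or voom and 0.708% of all genes were. Infused WT libraries (1.392, 2.393, 0.9967 and 0.6679 CPM) lay between and across both.

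Asns, Phgdh and Pycr1 varied more between mesenteric libraries of a group than between groups. Asns was 25.61, 9.294, 6.09 and 10.16 CPM in sham, 3.562, 8.138, 6.299 and 52.41 in infused WT and 5.831, 23.26, 5.194, 18.94 and 35.8 in KO. Summed acinar markers in the same order of libraries were 41910, 15430, 46.55 and 12920 CPM in sham, 23.6, 171.8, 65.07 and 99430 in infused WT and 60.82, 28150, 485.9, 979.1 and 66870 in KO. The library with the most acinar transcript had the most Asns, and the 4 libraries with over 20 CPM of Asns were the 4 with the highest acinar sums.

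Phgdh was 21.29, 13.94, 22.57 and 16.91 CPM in mesenteric sham, 10.85, 12.0, 10.76 and 40.7 in infused WT and 11.58, 27.24, 15.28, 17.53 and 31.67 in KO. Pycr1 was 11.19, 5.751, 3.069 and 5.198 CPM in sham, 5.121, 6.291, 6.339 and 16.12 in infused WT and 7.575, 9.451, 5.662, 6.783 and 15.73 in KO. Infused WT replicate 4 and KO replicate 5, the libraries highest in acinar markers, were also highest for both genes. Mthfd2 was highest in these 2 libraries too, at 19.01 and 23.29 CPM.

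By mean log2 acinar level, 7 mesenteric libraries had values of 0.35 to 6.08 and the other 6 had values of 9.77 to 12.7. Correlations with the acinar level were therefore not pooled over the 13. Among the 6, Asns followed the acinar level with r = 0.978 (exact permutation p = 0.00278; rho = 0.943, p = 0.0167; r = 0.951 without the 2 farthest libraries). Pycr1 gave r = 0.984 (exact permutation p = 0.00278; rho = 1, p = 0.00278; r = 0.993), Mthfd2 r = 0.929 (exact permutation p = 0.0153; rho = 0.943, p = 0.0167; r = 0.946) and Phgdh r = 0.908 (exact permutation p = 0.0208; rho = 0.886, p = 0.0333; r = 0.835). Adjusted over the 45 relations these p-values of r were 0.0625, 0.0625, 0.201 and 0.201 (exact permutation), so none passed. With 6 libraries the exact permutation p has a floor. The rho of 1 of Pycr1 gave the smallest p that rho can reach there, and its adjusted value was still 0.125 (exact permutation). For the rho of Pycr1, failing this adjustment therefore says little about whether a relation exists. The rho p-values of Asns, Mthfd2 and Phgdh lay above that floor (exact permutation). Psph, Shmt1, Psat1 and Shmt2 gave r of 0.009, 0.166, 0.186 and 0.046 among the 6. Without the 2 farthest libraries these were 0.954, 0.813, 0.694 and -0.156. Leaving out those libraries therefore cannot show that a relation is stable. Among the 7, Asns gave r = 0.759 (exact permutation p = 0.0401, adjusted 0.285; rho = 0.607, p = 0.167; r = 0.95 without the 2 farthest). Aldh18a1 gave r = 0.644 among the 6 and -0.548 among the 7 (exact permutation p = 0.165 and 0.201).

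**Figure D4:**
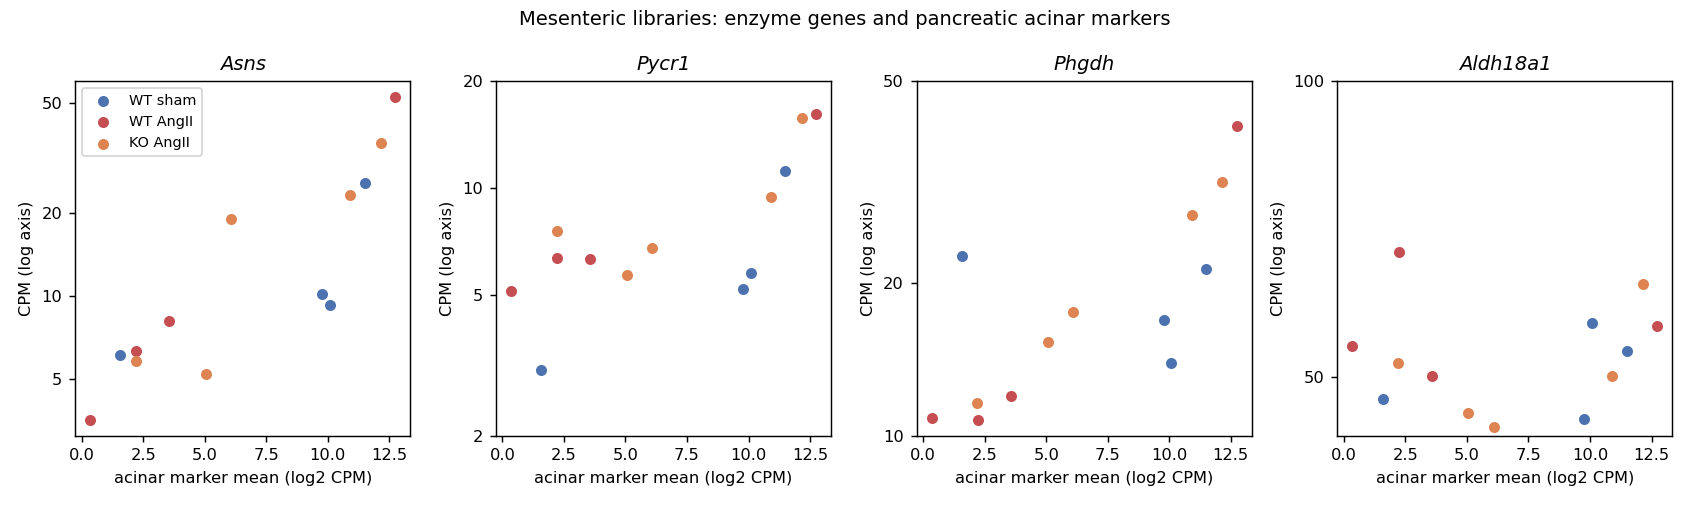
CPM (log axis) of Asns, Pycr1, Phgdh and Aldh18a1 against the mean log2 CPM of 10 pancreatic acinar markers in the 13 mesenteric libraries, coloured by group. Asns runs from 3.562 CPM in the library lowest in acinar markers to 52.41 in the highest, and libraries of all 3 groups lie at both ends of the x axis.

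With the acinar level as a covariate, a fit added after the data were seen, the standard errors for AngII in the mesenteric arteries shrank from 0.84 to 0.39 for Asns, from 0.46 to 0.24 for Pycr1 and from 0.44 to 0.32 for Phgdh. The log2 changes were then 0.65, 0.83 and 0.04 (adjusted p = 0.599, 0.289 and 0.983, edgeR), and the genes still did not pass. The fit planned beforehand, with acinar and gut epithelial markers together as the covariate, also called none of the 9 genes for AngII. Whether acinar cells account for the spread of these genes was not tested further.

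The vessels were compared directly in a fit of all 26 libraries. Of the 9, Psat1 was the 1 gene whose AngII response differed between the vessels by edgeR, with a mesenteric minus aortic difference of log2 fold changes of -1.61 ± 0.19 (adjusted p = 0.000102, edgeR), where 2.34% of the 18520 genes tested were called, 0.68% higher and 1.66% lower. Aldh18a1 came next at -0.65 ± 0.18 (adjusted p = 0.0547, edgeR); it passed by DESeq2 and by limma voom, with a stricter filter on low counts, with the replicate block and without any 1 of 6 libraries (infused WT aorta replicates 2 and 4, infused WT mesenteric replicate 3, mesenteric KO replicates 3, 4 and 5). For Asns, Phgdh, Pycr1 and Mthfd2 the differences of -0.80, -0.59, -0.59 and -0.47 had 95% intervals that span 0, so a difference between vessels was not detectable at this spread. Fibrillar collagen genes showed a smaller mesenteric than aortic AngII effect in 8 of 11 cases and hydroxylation and folding genes in 6 of 15, as did Slc38a10, an amino acid carrier (-0.43 ± 0.10, adjusted p = 0.0275), and Myc (-1.29 ± 0.32, adjusted p = 0.0297, edgeR). No gene was called for a difference of the KO effect between vessels by edgeR, 0 of 9 here and 0% of all genes. An unadjusted p below 0.05 was found for 0 of the 9 and 749 of all genes by edgeR. DESeq2 called 15 of all genes, and DESeq2 and limma voom each called 0 of the 9.

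Without infusion the vessels already differed. Psat1 was 5.16-fold higher in the sham mesenteric arteries than in the sham aorta (24.22 to 30.92 against 4.347 to 6.088 CPM; log2 2.37 ± 0.14, adjusted p = 3.19e-12, edgeR), above even the infused aortas at 10.74 to 15.51 CPM. Markers of other cells differed between the same libraries: 9 of 10 endothelial markers (summed CPM 3985 to 4288 against 981.3 to 1119), 8 of 10 Schwann and neuronal markers (591.6 to 874.7 against 68.31 to 105.5) and 9 of 10 acinar markers (46.55 to 41910 against 3.968 to 8.88) were called higher in the sham mesenteric arteries. Of 10 fibroblast markers 5 were called lower there and 1 higher, of 10 macrophage markers 4 and 1, and of 10 adipocyte markers 3 and 0. The part of all these cells in the vessel differences was not tested. Pycr1 was lower in the mesenteric arteries (3.069 to 11.19 against 13.26 to 17.06 CPM; log2 -1.34 ± 0.36, adjusted p = 0.00448, edgeR). These were 2 of 9 calls, where 38.4% of all genes were called, 20.7% higher and 17.7% lower. Asns (log2 1.44 ± 0.68, adjusted p = 0.0996), Shmt2 (0.21 ± 0.09, 0.0788) and Aldh18a1 (0.29 ± 0.13, 0.0768) had adjusted p-values above 0.05 by edgeR; Asns passed without infused mesenteric WT replicate 4, as did Phgdh (log2 0.63, adjusted p = 0.0453), Shmt2 without sham aorta replicate 2 or infused WT aorta replicate 3, and Shmt2 and Aldh18a1 by voom and with library size alone. Per kilobase of transcript the order in sham mesenteric arteries was Shmt2 (18.3 ± 0.932 CPM per kb, SD, n = 4), Aldh18a1 (14.4 ± 1.49), Psat1 (10.8 ± 1.27), Phgdh (9.87 ± 2.10), Asns (6.34 ± 4.33), Mthfd2 (5.61 ± 0.982), Psph (4.77 ± 0.487), Pycr1 (2.16 ± 1.19) and Shmt1 (0.287 ± 0.0744). Psat1 and Phgdh lay less than the larger SD of the pair apart there. The same held for Phgdh and Asns, Asns and Mthfd2, and Mthfd2 and Psph. By this per-length measure Psat1 stood above Mthfd2 and Pycr1 in the sham mesenteric arteries and below both in the sham aorta.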

How the data were processed

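The authors deposited, for each library, a table of raw counts by Ensembl identifier, made with cutadapt, HISAT2 and HTSeq on GRCm39 per the submitters' processing notes; versions, annotation and strand setting are not given in the sources used here, so overlapping antisense genes cannot be told apart. The kit was directional and selected poly(A) RNA, per the labels' protocols. The 5 summary lines per table stayed out. Each tissue was fitted with its 3 groups in edgeR 4.0.16 (R 4.3.3; filterByExpr, TMM, robust quasi-likelihood F test), and differences between vessels in 1 fit of all 26 libraries. Alternatives used RLE or library size scaling, other filters, DESeq2 1.42.0, limma 3.58.1 voom, only the groups compared, a replicate block, marker covariates and each library left out. Depth was 17540532 to 32251097 counts per library; Shmt1, at about 1 CPM, had the largest standard error of the 9 in the aorta, and Asns had it in the mesenteric arteries. Single values were compared by exact two-sided permutation tests (SciPy 1.17.1).

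Codons and transcript lengths came from GENCODE M21 models on GRCm38, 1 per gene (21866 coding genes), in place of the RefSeq proteins first planned; promoters came from RefSeq. Symbols were matched for 52083 aortic and 52081 mesenteric identifiers. The genes and all lists were chosen with earlier results of these data known. Named genes are the 9, Sphk1, Col1a1, Col1a2 and Col3a1, up to 3 called genes per list by adjusted p in the aortic AngII effect and up to 2 in other comparisons, and the 5 most alike per tissue; Tgfb2, Atf4, Trib3, Ddit3, Slc6a9, Eprs1, L3hypdh, Pycr3, Prodh and Aldh4a1 were named for their function after their values were seen, and some genes that the rule names are not reported here. Libraries are separate samples of a group; the labels do not say which vessels share an animal. The fits were tested on simulated data first.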

Additional observations from a re-analysis of the deposited data

Results flagged for a closer look

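In the mesenteric infused WT group, replicate 4 stood far above the other 3 libraries for Asns (52.41 CPM), Phgdh (40.7 CPM), Mthfd2 (19.01 CPM), Psat1 (28.72 CPM) and Pycr1 (16.12 CPM), and far below them in proline codons (5.85%). The same library had the highest acinar marker sum, 99430 CPM. Mesenteric KO replicate 3 stood apart for Shmt1 (4.129 CPM), and infused WT aorta replicate 3 for Shmt2 (41.98 CPM). In all, 72 groups of values were examined and 8 held such a library; chance gives about 1 in 20. Psat1 is listed for another reason: its response to AngII differed between the vessels by a test of the difference itself (log2 -1.61, adjusted p = 0.000102, edgeR).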

How the results depend on the processing

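Over the alternatives run, no result that was called changed direction. In the aorta the count of the 9 genes called for AngII stayed at 6 except when 1 library was left out (5 to 6), and for KO against sham it was 4 to 6. Scaling by library size alone shifted the all-gene median by -0.13 (log2) for AngII in the aorta and turned its split of calls from 2475 higher and 1826 lower to 1747 and 3729; the 6 genes stayed called higher (Psat1 1.27, Asns 1.13, Pycr1 0.87, Aldh18a1 0.68, Mthfd2 0.55, Phgdh 0.45), while Psph and Shmt2 had values of -0.05 and -0.11. The same scaling changed the split of the vessel difference in AngII response from 126 and 308 to 188 and 183, and that of KO against sham from 2796 and 2401 to 2192 and 4075 in the aorta and from 80 and 44 to 65 and 70 in the mesenteric arteries.

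The replicate block (number as a term) ended 2 calls of the 9 genes in aortic KO against sham, Phgdh (0.39, adjusted p = 0.14) and Mthfd2 (0.46, adjusted p = 0.081), by edgeR. Whether replicate numbers pair the samples could not be decided from the labels or from correlations of deviations between libraries. Same-numbered libraries correlated at -0.29 to 0.10 in the aorta, above 0.1 in 1 of 12 pairs (9 of 44 pairs with different numbers). In the mesenteric arteries they correlated at -0.26 to 0.34, above 0.1 in 7 of 12 pairs (15 of 44 with different numbers). Across tissues the values were -0.13 to 0.20, above 0.1 in 4 of 13 pairs (5 of 44 with different numbers). With the block, all genes called were 3 for KO in the aorta, 8 for AngII, 0 for KO and 20 for KO against sham in the mesenteric arteries, and 190 for the vessel difference, where 2 of the 9 genes were called.

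Counts of all genes called moved more than those of the 9. For KO in the aorta (1 gene) DESeq2 gave 6 and leaving out a library 1 to 2. For AngII in the mesenteric arteries (32) library size alone gave 15, DESeq2 309, voom 252, only the groups compared 78, the acinar covariate 14 and leaving out a library 8 to 116. For KO there (1) the count was 0 with library size alone, voom, only the groups compared, the acinar covariate or without WT AngII 1 and KO 3, 2 by DESeq2 and 0 to 2 without a library. For KO against sham there (124) it was 1405 by DESeq2, 479 by voom, 15 with only the groups compared and 23 to 156 without a library. The vessel difference in AngII response (434; 1 of the 9) gave 272 without a filter, 867 and 2 of the 9 by DESeq2, 1260 and 2 by voom, 2 with a stricter filter, and 227 to 639 and 1 to 2 without a library. For the difference of the KO effect (0), DESeq2 gave 15. In sham, library size alone and voom each called 4 of the 9 instead of 2, and leaving out a library gave 2 to 4. Leaving out collagen genes brought the proline codon difference to 0.06851 points, by construction. The other causes were not tested.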
